A study of Mus musculus with 8 samples.

Results

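Genes of ovarian steroid synthesis were followed on 8 single-colour mouse arrays of germinal vesicle (GV) oocytes, immature oocytes that have not yet broken down their nucleus. Milrinone oocytes (n = 4) were kept for 48 h in milrinone, a phosphodiesterase inhibitor that holds oocytes at the GV stage, and untreated GV oocytes (n = 4) were separate samples. All 8 samples were total RNA of GV oocytes, and the labels give no strain and no age. They name no oocytes cultured in the absence of milrinone, so effects of the drug, of culture and of time cannot be told apart. The gene set had 10 members, and its probe sets were those whose array annotation names exactly 1 gene that is a member. This gave 16 probe sets for 8 genes of 45037 probe sets that are not controls: Star and Cyp11a1 had 3 each, Nr5a2 had 4, Nr5a1 had 2, and Cyp17a1, Hsd3b1, Hsd17b1 and Fdx1 had 1 each. Cyp19a1 and Fdxr had none and were not analysed here.

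Steroid hormones of the follicle are made from cholesterol by granulosa cells, which surround the oocyte, and by theca cells in the follicle's outer layer. The oocyte itself is not a classical site of this synthesis. Star carries cholesterol into mitochondria, Cyp11a1 cleaves its side chain with electrons passed on by the iron-sulfur protein Fdx1, and Hsd3b1 makes progesterone from the product. Cyp17a1 makes androgens in theca cells, Hsd17b1 completes estradiol in granulosa cells, and the nuclear receptors Nr5a1 and Nr5a2 switch on genes of the pathway.

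To show the regulatory sequence of members whose levels are given here, 4 start regions follow, from the promoter table of RefSeq (build GRCm38.p6), which matched 6 of the 10 members with 10 windows. Each runs 300 bases 5′ to 3′ along the gene's strand, from 250 before to 50 after an annotated start, and capitals mark the nuclear receptor half-site AGGTCA or the GC box GGGCGG on either strand.
Hsd3b1, chr3:98859745-98860044, minus strand: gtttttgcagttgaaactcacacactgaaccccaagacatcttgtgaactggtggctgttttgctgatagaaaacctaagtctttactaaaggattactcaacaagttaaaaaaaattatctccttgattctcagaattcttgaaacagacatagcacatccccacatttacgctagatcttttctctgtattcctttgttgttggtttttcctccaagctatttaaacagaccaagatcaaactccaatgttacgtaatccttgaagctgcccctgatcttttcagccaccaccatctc
Cyp11a1, chr9:58014702-58015001, plus strand: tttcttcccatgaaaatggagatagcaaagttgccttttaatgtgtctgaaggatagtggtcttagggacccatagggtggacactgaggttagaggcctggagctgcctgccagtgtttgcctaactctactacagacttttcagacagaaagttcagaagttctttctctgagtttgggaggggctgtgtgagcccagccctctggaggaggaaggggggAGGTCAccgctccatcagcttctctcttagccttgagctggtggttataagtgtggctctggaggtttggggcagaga
Fdx1, chr9:51963553-51963852, minus strand: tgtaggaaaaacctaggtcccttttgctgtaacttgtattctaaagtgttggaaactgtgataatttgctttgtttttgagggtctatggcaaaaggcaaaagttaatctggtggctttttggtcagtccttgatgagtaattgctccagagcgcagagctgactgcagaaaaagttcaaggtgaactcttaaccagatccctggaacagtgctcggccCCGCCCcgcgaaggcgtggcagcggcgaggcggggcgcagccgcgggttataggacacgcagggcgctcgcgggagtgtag
Nr5a2, chr1:136960399-136960698, minus strand: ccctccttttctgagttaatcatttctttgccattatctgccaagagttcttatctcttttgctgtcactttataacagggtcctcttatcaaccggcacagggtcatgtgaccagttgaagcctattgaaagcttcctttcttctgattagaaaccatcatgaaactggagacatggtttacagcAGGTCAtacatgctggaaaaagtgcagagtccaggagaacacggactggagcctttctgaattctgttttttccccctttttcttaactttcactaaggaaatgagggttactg
The half-site was found in 3 of the 10 windows of the members, those of Cyp11a1 and Nr5a2 shown and another of Cyp19a1, against 16.3% of all 32851 windows in the table. The GC box was found in 3, among them that of Fdx1, against 35.7%. The longer letters CAAGGTCA, which overlap the half-site and are a form bound by Nr5a1 and Nr5a2, were in 0 of the 10 and in 1.56% of all windows. A match describes letters in these windows and is not a binding site.

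Untreated 1 stood apart from the rest, with a median array correlation of 0.930 compared with 0.966 to 0.980 for the other 7. Fitted differences, and medians of them, that moved by over 1.5 times without it are given both ways.

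Steroid synthesis genes of follicle cells were measured on untreated arrays, and fewer of their probe sets had a value on milrinone arrays. Here a probe set is listed on an array where its cell holds a value, and an empty cell puts no bound on the signal. The milrinone arrays listed 7, 7, 6 and 6 of the 16 probe sets for replicates 1 to 4, and the untreated arrays listed 15, 13, 12 and 11. The groups did not overlap, and the milrinone median was 6.5 against an untreated median of 12.5. Over all probe sets the milrinone arrays listed 18572 to 19414, and untreated 1 to 4 listed 23237, 21151, 19974 and 18855. Untreated 1 to 3 thus lay above every milrinone array in this count too, and both untreated counts fell from untreated 1 to 4. The part of this wider listing in the member counts was not tested. Without untreated 1, the difference of the medians was -5.5, compared with -6 over all arrays. Counted by gene, milrinone arrays 1 to 4 listed 4, 5, 4 and 4 of the 8 genes by at least 1 probe set. The untreated arrays listed 8, 8, 8 and 7.

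**Figure D1:**
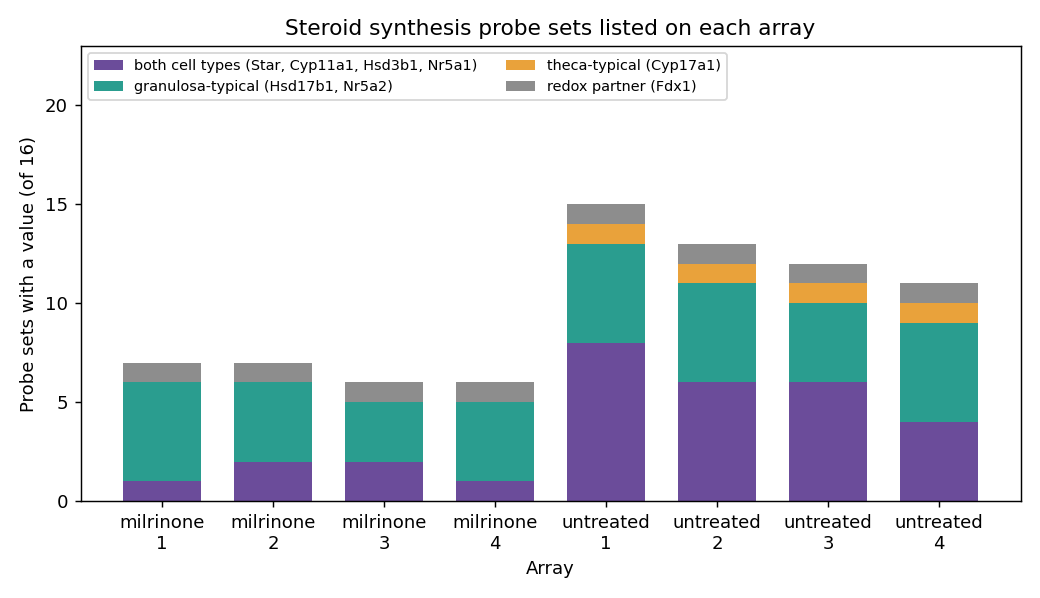
Number of steroid synthesis probe sets with a value on each array, of 16, as stacked bars coloured by the cell type in which the gene is typically made. The milrinone bars reach 6 or 7 and the untreated bars 11 to 15, and the theca bar is missing from all 4 milrinone arrays.

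Star, which delivers cholesterol to the first enzyme, was listed on 0 of 4 milrinone arrays by any of its 3 probe sets. Probe set 1418728_at had no value in milrinone oocytes, against intensities of 2376, 164, 262 and 175 on untreated arrays 1 to 4. Probe set 1418729_at had 2826 and 422 on untreated 1 and 3 and no other value. Probe set 1449201_at had 1956, 154 and 168 on untreated 1 to 3. All 3 probe sets of Star were thus highest on untreated 1 and unlisted in milrinone oocytes.

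Cyp11a1, the side chain cleavage enzyme, gave differing pictures on its probe sets. Probe set 1448804_at had no value on the milrinone arrays, against 9664, 1008, 1209 and 576 on the untreated arrays. Probe set 1439947_at had 181, 212, 226 and 212 on milrinone arrays, against 127, 212 and 169 on untreated 1, 2 and 4, with untreated 3 empty. It was lowest on untreated 1, where the other was highest, and its groups overlapped. A further probe set, 1457604_x_at, whose suffix marks probes shared with other transcripts, was listed only on untreated 1, at 17.1. The fitted difference of 1439947_at was 0.29 on the log2 scale (SE 0.19, limma adjusted p = 0.603).

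Hsd3b1, the enzyme that yields progesterone, had 224 and 165 on milrinone 2 and 3 and no value on milrinone 1 and 4, against 15429, 3688, 4335 and 2116 on the untreated arrays. Each listed milrinone value lay below every untreated value, and the share of all probe sets with as few values that did so was not computed. Over the listed values the mean log2 difference was -4.52, and with 2 milrinone values it was not tested with the others. A fit that also took probe sets listed on 2 arrays of a group gave it an SE of 0.66, and it did not pass (limma adjusted p = 0.0818). Hsd3b1 belongs to a family of similar genes, and cross-hybridisation to other Hsd3b members was not tested.

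Cyp17a1, the androgen-making enzyme and the only theca-typical member, had no value on any milrinone array, against 2409, 389, 437 and 478 on the untreated arrays. Its untreated values 2 to 4 lay close together, their highest being 1.23 times their lowest. The same ratio was 1.05 for Fdx1, 1.30 for Hsd17b1 and 1.60 for Star 1418728_at. For Nr5a2 it was 1.33 on 1420410_at, 1.32 on 1449706_s_at and 1.40 on 1456521_at. The largest were 2.05 for Hsd3b1 and 2.10 for Cyp11a1 1448804_at. Both were lowest on untreated 4, where Cyp17a1 was above its values on untreated 2 and 3.

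Listing differed fully between groups for 3 of the 9 member probe sets listed on all 4 untreated arrays: Star 1418728_at, Cyp11a1 1448804_at and Cyp17a1 were listed on 0 milrinone arrays. Of all 15931 probe sets listed on all 4 untreated arrays, 1.33% were listed on 0 milrinone arrays. The reverse, listed on all 4 milrinone and 0 untreated arrays, held for 0 members and for 0.0983% of the probe sets listed on all 4 milrinone arrays. Each of the 3 had an exact p of 0.0286 in a two-sided Fisher test, the smallest that 4 against 4 arrays allow. Adjusted over the 29060 probe sets listed at least once, every adjusted p was 1, so no single listing passed. Leaving out untreated 1 could not take any of the 3 out of this rule, so it is no check of them.

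**Figure D2:**
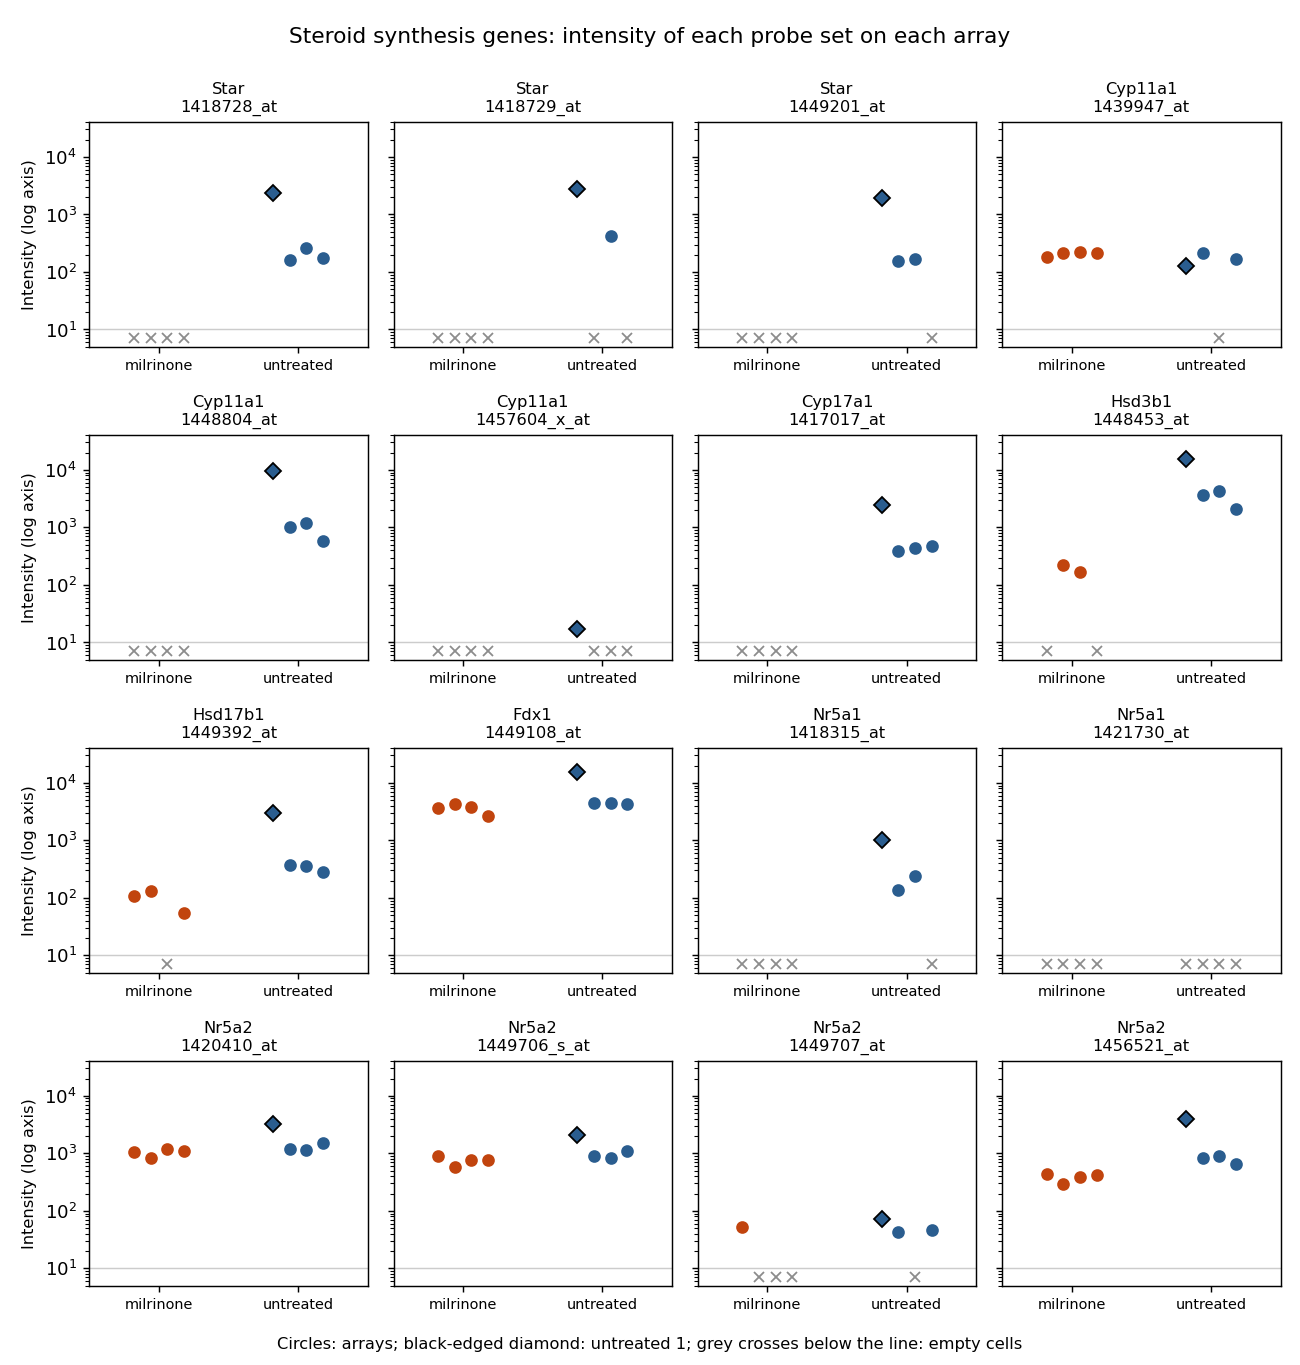
Intensity (log axis) of each of the 16 member probe sets on the 4 milrinone and 4 untreated arrays, with untreated 1 as a diamond and empty cells as crosses at the base. Star, Cyp17a1 and Cyp11a1 1448804_at have milrinone crosses only, Fdx1 and 3 probe sets of Nr5a2 have values on all 8 arrays, and Nr5a1 1421730_at has none.

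Of the 16 probe sets, 6 were listed on at least 3 arrays of each group and could be tested by level, and 0 passed (limma, adjusted p under 0.05), with 3 at an unadjusted p under 0.05. Over all 16288 tested probe sets, 0.117% were lower and 0.00% higher in milrinone at the adjusted threshold, and 9.63% differed in either direction at the unadjusted one. Levels were compared as log2(intensity + 16), and each difference is milrinone minus untreated. The 6 differences had a median of -0.70, beside 0.06 for all tested probe sets, and 5 of the 6 lay below 0. Without untreated 1 the median of the 6 was -0.33, beside 0.03.

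Hsd17b1, which completes estradiol in granulosa cells, had 106, 129.8 and 54.2 on milrinone 1, 2 and 4 and no value on milrinone 3, against 3039, 372, 354 and 286 on the untreated arrays. Every listed milrinone value was below every untreated value, and untreated 1 stood far above the others. How often this held over all probe sets with as few listed values was not computed. The fit, with milrinone 3 left out as empty, gave a difference of -2.48 (SE 0.72, 95% interval -4.10 to -0.87), which did not pass (limma adjusted p = 0.456). Without untreated 1 Hsd17b1 fell by 1.70 (SE 0.27, limma adjusted p = 0.0488), where 0.417% of all tested probe sets were called lower, and it was then the only member to pass.

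Nr5a2, a nuclear receptor typically made in granulosa cells, was listed on all 8 arrays by 3 probe sets that differed in size of change. Probe set 1456521_at had 438, 294, 392 and 423 in milrinone oocytes, against 4003, 834, 911 and 653 in untreated oocytes. The groups did not overlap. Its difference was -1.60 (SE 0.47, 95% interval -2.64 to -0.55, limma adjusted p = 0.456), and without untreated 1 it was -1.02 (SE 0.18, limma adjusted p = 0.0623).

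Probe set 1420410_at of Nr5a2 had 1067, 836, 1193 and 1078 in milrinone oocytes, against 3223, 1195, 1125 and 1494 in untreated oocytes. These groups overlapped, since milrinone 3 lay above untreated 3. The difference was -0.62 (SE 0.29, limma adjusted p = 0.516), and -0.28 without untreated 1. Probe set 1449706_s_at had 915, 576, 782 and 766 in milrinone oocytes, against 2062, 913, 831 and 1097 in untreated oocytes, a difference of -0.60 (SE 0.27, limma adjusted p = 0.514) that became -0.32 without untreated 1. The dim 1449707_at had 52.6 on milrinone 1, against 72.0, 42.8 and 45.7 on untreated 1, 2 and 4. Nr5a2 transcripts were thus still measured in all 4 milrinone samples by 3 of 4 probe sets.

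Fdx1, the electron carrier of mitochondrial steroid enzymes that also serves mitochondria outside steroid-making cells, had 3673, 4257, 3881 and 2653 on the milrinone arrays, against 15499, 4555, 4545 and 4358 on the untreated arrays. The groups did not overlap, although milrinone 2 and untreated 4 were close. The difference was -0.78 (SE 0.36, 95% interval -1.58 to 0.03, limma adjusted p = 0.516). Without untreated 1 it was -0.33 (SE 0.15, limma adjusted p = 0.606).

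Of the 4 member probe sets listed on all 8 arrays, 2 (Fdx1 and Nr5a2 1456521_at) had every milrinone value below every untreated value. This held for 2.06% of all 14391 probe sets listed on all 8 arrays. Exact two-sided permutation tests of these 4 gave p = 0.0286 for those 2, the smallest possible for 4 against 4, and 0.0571 and 0.0857 for Nr5a2 1420410_at and 1449706_s_at.

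**Figure D3:**
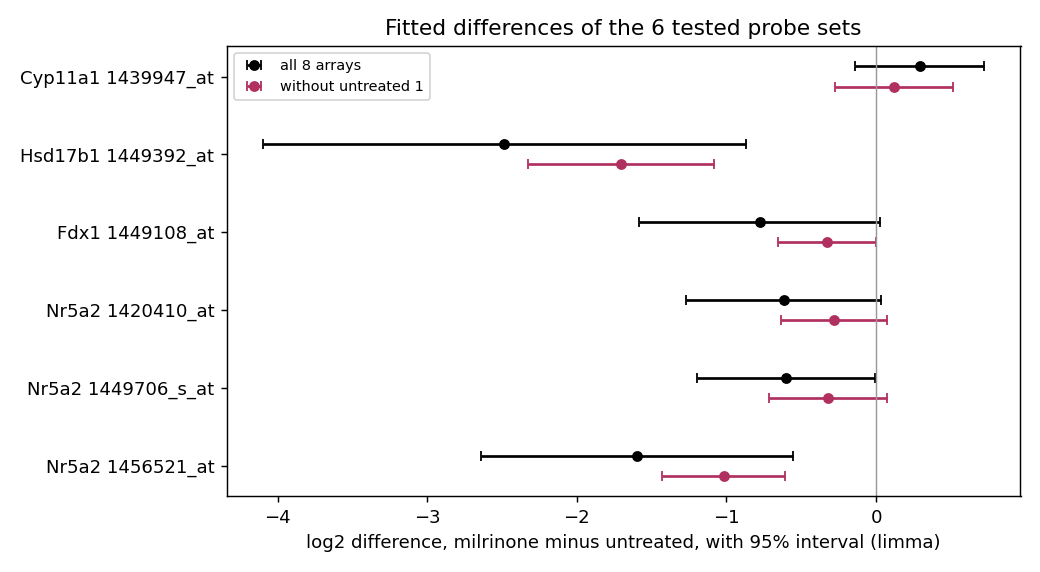
Fitted log2 differences, milrinone minus untreated, with 95% intervals for the 6 tested member probe sets, over all 8 arrays (black) and without untreated 1 (red). Leaving out untreated 1 moved Hsd17b1 to -1.70 from -2.48 and narrowed its interval, while Cyp11a1 1439947_at lay at 0.29 and 0.12.

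Nr5a1, the nuclear receptor also called steroidogenic factor, was listed in untreated oocytes only. Probe set 1418315_at had no value on the milrinone arrays, against 1011, 138 and 239 on untreated 1 to 3, with untreated 4 empty. Probe set 1421730_at was listed on 0 of 8 arrays.

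Granulosa-typical and theca-typical members were compared by listing, without a test, since the theca side held 1 gene with 1 probe set. The granulosa-typical Hsd17b1 and Nr5a2 together had 5, 4, 3 and 4 of 5 probe sets listed on the milrinone arrays, against 5, 5, 4 and 5 on the untreated arrays. The theca-typical Cyp17a1 was listed on 0 of 4 milrinone arrays, against 4 of 4 untreated arrays. Star, Cyp11a1, Hsd3b1 and Nr5a1, made in both cell types, had 1, 2, 2 and 1 of 9 listed on the milrinone arrays, against 8, 6, 6 and 4 on the untreated arrays. Most of the granulosa-side listings in milrinone oocytes were those of Nr5a2, and the milrinone listings in the shared class were those of Cyp11a1 1439947_at and Hsd3b1. Nr5a2 1420410_at had 836 to 1193 on the milrinone arrays. Which cells gave the Nr5a2 signal was not tested.

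Untreated 1 was the highest untreated array for all 9 member probe sets listed on all 4 untreated arrays, which held for 23.8% of all probe sets so listed. Its intensity was 2.26 to 13.6 times the median of untreated 2 to 4, whereas the median of all such probe sets was 0.901. For 7 of the 9 it was at least 3 times that median, against 4.04% of all. Star 1418728_at had the highest ratio at 13.6, Cyp11a1 1448804_at had 9.59, Hsd17b1 had 8.57, Cyp17a1 had 5.51, Hsd3b1 had 4.18 and Fdx1 had 3.41. Nr5a2 had 4.80 for 1456521_at, 2.70 for 1420410_at and 2.26 for 1449706_s_at. The excess thus differed between members, and between probe sets of Nr5a2.

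**Figure D4:**
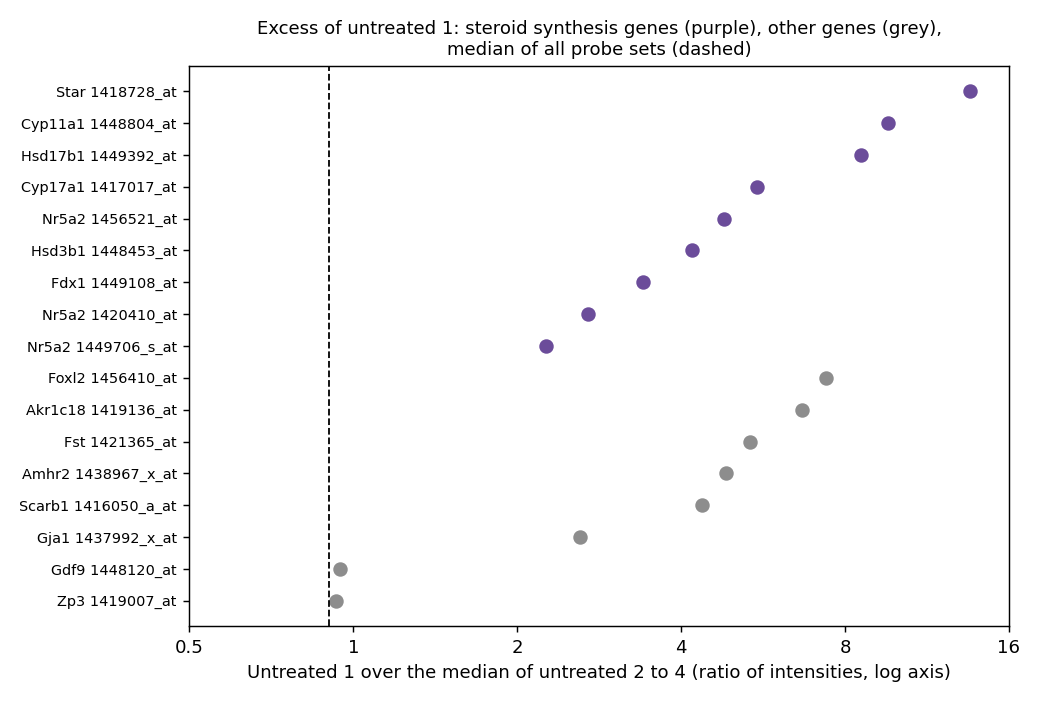
Intensity of untreated 1 divided by the median of untreated 2 to 4 (log axis) for 9 member probe sets (purple) and 8 other genes (grey), with the median of all probe sets as a dashed line. Members lie between 2.26 and 13.6, whereas the oocyte genes Gdf9 and Zp3 lie at 0.943 and 0.930. The 8 other genes were picked by hand from the named ones. Among those not drawn, Akr1c14 and Cyp1b1 were at 6.71 and 6.22, and Kitl, Stard5 and Acbd3 at 0.745, 0.711 and 0.739.

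Markers of the cells that make steroids, taken as sets, had fewer listings and lower sums on the milrinone arrays. Of 25 probe sets of 11 granulosa marker genes, the milrinone arrays listed 5 to 9 with a summed intensity of 266 to 1562, against 14 to 19 and 12125 to 48244 on the untreated arrays. For 18 probe sets of 8 theca and stroma marker genes, Cyp17a1 among them, the milrinone arrays listed 0 or 1 with a sum of 0 to 40.8, against 3 to 10 and 782 to 13556 on the untreated arrays. Cyp17a1, itself a member, made up 2409, 389, 437 and 478 of the theca sums of 13556, 1196, 1866 and 782 on untreated 1 to 4. No theca sum without it was computed. The granulosa and theca sums were both highest on untreated 1. The granulosa marker Amh was listed nowhere, and no probe set named only the theca marker Insl3 or Lhcgr. In contrast, all 13 probe sets of 10 oocyte genes were listed on every array, with sums of 110453 to 120406 in milrinone oocytes and 109373 to 129338 in untreated oocytes. In such bulk samples fewer cells of a type and less RNA per cell cannot be told apart, and the part of these markers in the member differences was not tested.

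Of 3 tested granulosa marker genes 1 fell, and no theca marker gene could be tested. Gja1, a gap junction gene, fell by 4.91 (SE 0.60, limma adjusted p = 0.0109). Foxl2, a transcription factor of granulosa cells, differed by -1.86 (limma adjusted p = 0.475), and without untreated 1 it fell by 1.14 (limma adjusted p = 0.0426). The growth factor gene Kitl differed by -0.08, and by -0.17 without untreated 1. The median of the 3, which is the value of Foxl2, was -1.86, and -1.14 without untreated 1, where 2 of the 3 fell. Of the 11 granulosa marker genes, 7 were listed on at least 1 array of each group, as was 1 of the 8 theca and stroma marker genes. Amhr2, a receptor gene, and Fst, which encodes the activin-binding protein follistatin, were listed on 0 milrinone arrays by their brightest probe sets. Amhr2 had 3031, 679, 628 and 227 on the untreated arrays and Fst had 1917, 358, 322 and 601. All 10 oocyte genes were tested, and limma called 0 of them at the adjusted threshold and 0 at the unadjusted one. Their median difference was -0.03, and -0.08 without untreated 1. Gdf9, an oocyte growth factor, differed by -0.05, the zona pellucida genes Zp3 and Zp2 by -0.07 and -0.10, and Figla, an oocyte transcription factor, by 0.23.

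Of 26 other steroid enzyme genes with a probe set, 14 were listed on at least 1 array of each group and 3 were listed nowhere. By level 11 were tested and 0 passed in either direction (limma). Their median was -0.21, and at an unadjusted p under 0.05 there were 4. Cyb5r3, a reductase of cytochrome b5, differed by -0.67 (SE 0.14, limma adjusted p = 0.220). Akr1c14, a steroid reductase, had 27.3, 22.5 and 19.4 on milrinone 2 to 4, against 1043, 157, 155 and 65.4 on the untreated arrays. It differed by -2.53 (limma adjusted p = 0.431), and without untreated 1 it fell by 1.79 (limma adjusted p = 0.0489). Akr1c18, which breaks down progesterone, was listed on 0 milrinone arrays, against 3374, 507, 628 and 331 on the untreated arrays. Hsd11b2, which inactivates glucocorticoids, had 70.4 on milrinone 2, against 485, 163, 241 and 97.3 on the untreated arrays. Hsd17b10 and Cyp1b1 differed by -1.23 and -1.38 (limma adjusted p = 0.492 and 0.495), and without untreated 1 by -0.74 and -0.75 (limma adjusted p = 0.269 and 0.206).

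Regulators of the pathway gave 8 tested genes, of which 0 passed (limma) and 1, Foxl2, had an unadjusted p under 0.05, with a median of -0.08. Prkar1a and Prkaca, subunits of the cAMP-dependent kinase that drives steroid synthesis, differed by -0.40 and 0.16, and the estrogen receptor gene Esr1 by 0.24. Without untreated 1 Prkar1a differed by -0.13 and Prkaca by 0.38, and Foxl2 passed.

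By a rule of nearest array profile, the genes most like Fdx1 over the 8 arrays were Cox20, Grcc10 and Nisch. Their log2 profiles, each centred on its mean, lay at root mean square distances of 0.185, 0.186 and 0.187 from that of Fdx1, against a median of 0.787 over 13305 probe sets. Fdx1 was the only member whose brightest tested probe set was listed on all 8 arrays and spanned at least 2 on the log2 scale. Cox20 had 169, 170.4, 166 and 80.0 in milrinone oocytes, against 879, 175, 192 and 188 in untreated oocytes, so untreated 1 was again highest and milrinone 4 lowest.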

How the data were processed

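The authors deposited 1 linear intensity for each of 45101 probe sets on each array. Per the labels, 15 µg of cRNA went onto each chip, which makes each level a share of the RNA in its sample. The sources used here do not give the software, the scaling or the reason why 48.4% to 58.7% of an array's cells are empty. Depth has no count here, and the number of arrays limits the precision. Nothing says that replicates came from separate animals, and p-values then reflect only differences among these samples, possibly technical ones.

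Gene names are those of the platform annotation, which gave 1 symbol to 34945 probe sets, several to 932 and none to 9160. Members were matched on that symbol, and the other lists also on symbols updated by Entrez identifier to RefSeq (34741 matched). Levels were tested as log2(intensity + 16), which understates changes of dim probe sets. Probe sets listed on at least 3 arrays of each group were fitted in R 4.3.3 by lmFit and eBayes of limma 3.58.1 with a trend, two-sided, and p was adjusted by Benjamini-Hochberg over all 16288. Empty cells stayed empty. On simulated data for this comparison with 16288 probe sets, limma recovered 68% of changes of 2-fold and 94% of 4-fold, and 14 of 195 calls were false. Simulated errors were independent, with no array standing apart. The changed probe sets were drawn at random from the tested ones, whose median SE was 0.17. For members with a larger SE, up to 0.72 for Hsd17b1, recovery was not tested. Python 3.11.15 with scipy 1.17.1 ran the exact tests and matplotlib 3.10.9 drew the figures.

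The genes named are all members and, of each list, up to 4 tested genes with the smallest adjusted p, up to 4 listed on all 4 untreated and 0 or 1 milrinone arrays by their brightest probe set (mean of listed values), and Gdf9 and Zp3. Members and lists were chosen with earlier results of these data known. For the Actb control the 3′ signal over the 5′ signal was 11.6 to 20.4 on milrinone and 6.87 to 13.1 on untreated arrays, and for Gapdh it was 6.09 to 8.25 and 6.23 to 7.68. The part of these ratios in the results was not tested. Alternatives were other scalings, pseudocounts, filters and variance models, array weights, a replicate block and leaving out each array.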

Additional observations from a re-analysis of the deposited data

Results flagged for a closer look

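In 4 of the 16 groups of 4 arrays examined, 1 array lay far from the other 3, and chance picks out about 1 group in 20, or 0.8 of 16. In each, untreated 1 was the highest untreated array. Its gap to the next array, as a ratio of the range of the group on the log2 scale, was 0.965 for Fdx1, 0.892 for Hsd17b1, 0.889 for Cyp17a1 and 0.832 for Star 1418728_at. The genes share these arrays, so the 4 are not independent.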

How the results depend on the processing

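Over the alternatives that could be run, the difference of each tested member kept its direction, from -3.17 to -1.70 for Hsd17b1, -1.88 to -1.02 for Nr5a2 1456521_at, -0.94 to -0.33 for Fdx1 and 0.04 to 1.17 for Cyp11a1 1439947_at. The only call was Hsd17b1 without untreated 1 (-1.70), and over its alternatives the limma adjusted p ran from 0.0488 to 0.835. Leaving out each array gave -2.82 to -1.70 for Hsd17b1. Of all tested probe sets, 19 changed, with 9 to 69 when an array was left out (9 to 68 lower, 0 to 3 higher), the fewest without milrinone 3 and the most without untreated 1. Array weights gave 106 (97 lower, 9 higher). The lowest weights were those of untreated 1 (0.232) and untreated 4 (0.346), against 1.07 to 2.88 for the other arrays. Probe sets listed on all 8 arrays gave 12 (12 lower), and empty cells at 0 gave 12 lower and 7 higher, only 1 of them among the 19. A replicate block gave 13 changed and a difference of -2.72 for Hsd17b1. Same-numbered arrays correlated at -0.266 to 0.0333 in their deviations, 0 of 4 best with its own number. Pairing by number was thus not seen, but 4 arrays per group, with untreated 1 apart, could not exclude it. Counting the brightest probe set of each gene, the difference of median listings was -3.5. Allowing 1 array of the other group gave 458 and 59 probe sets listed fully in untreated or milrinone oocytes, compared with 212 and 15 (15 became 25 without untreated 1). The cause of these changes was not tested.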

Other observations

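Of 11 genes that supply cholesterol to steroid synthesis and have a probe set, 10 were listed on at least 1 array of each group. By level 8 were tested, 0 passed (limma) and 2 had an unadjusted p under 0.05, with a median log2 difference of -0.01, and -0.04 without untreated 1. Scarb1, the receptor that takes up cholesterol from high-density lipoprotein, had 722, 768, 547 and 559 on the milrinone arrays, against 5829, 1337, 1477 and 902 on the untreated arrays. The groups did not overlap, which held in this direction for 2.06% of all probe sets listed on all 8 arrays. The difference was -1.46 (SE 0.46, limma adjusted p = 0.460), or -0.90 without untreated 1 (limma adjusted p = 0.182). Stard5, a relative of Star that binds sterols, was higher on all 4 milrinone arrays, at 1201, 1299, 1232 and 1417, against 720, 623, 1135 and 1012 on the untreated arrays. Its difference of 0.59 did not pass (SE 0.19, limma adjusted p = 0.460), and the share of all probe sets with every milrinone value higher was not computed. Npc2 and Acbd3, which bind or help to move cholesterol, differed by -0.19 and 0.08, and by -0.07 and -0.02 without untreated 1. Abca1, a cholesterol exporter, had 40.2 on milrinone 4 only, against 876, 213, 346 and 146 on the untreated arrays.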
